A study of Mus musculus with 12 samples.

Results

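The 9 regulators and marker genes described here, of blood stem cells and of the megakaryocyte and erythroid lineages, were followed across the lymphoid and multipotent progenitors of mouse bone marrow (BM). They were Mecom, Meis1, Hlf and Gata2, the transcription factors of the stem cell program, Gata1, Tal1 and Gfi1b, the transcription factors of the erythroid and megakaryocyte program, and Itga2b and Pf4, a surface integrin and a granule chemokine of megakaryocytes. They were chosen by name from the 32285 genes of the table, with earlier results of these data known. All 9 were among the 13367 genes that passed the filter on low counts and were tested. RNA was sequenced from Ly6d- CLPs, common lymphoid progenitors sorted as negative for the surface marker Ly6d, and from Flk2+ MPPs, the multipotent progenitors that lie upstream of them. All mice were C57BL6/J with the genotype WT, and both cell types were sorted from lineage-depleted BM at 1 month (1MO) and at 3 months (3MO) of age, with 3 libraries in each of the 4 groups and 12 in all. The replicates were separate experiments according to the description of the series, and the methods state that cells were purified from each mouse, but no source used here says whether equally numbered libraries came from the same mouse or the same experiment. None of the 9 proteins is named as a sorting marker in the methods of the study.

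Blood stem cells and early multipotent progenitors share a set of transcription factors that hold cells in an undifferentiated state, among them the proteins of Mecom, Meis1, Hlf and Gata2. GATA2 is replaced by GATA1 at shared sites on chromatin as cells enter the erythroid or megakaryocyte lineage, where GATA1 acts with TAL1, LMO2 and LDB1 in one complex and GFI1B represses alternative programs. Itga2b encodes CD41, one chain of the platelet fibrinogen receptor, and Pf4 encodes platelet factor 4, which is stored in platelet granules. CLPs give rise to lymphocytes and are not a normal source of erythrocytes or platelets.

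The estimated counts of the libraries summed to between 8889083 and 20677785, with a median of 13208993, and 12380 to 15521 genes had a count in a library. Levels are given as CPM, the counts scaled to a common library total after TMM normalization, which corrects for depth and composition but not for gene length. The lymphoid genes checked the sort: Il7r, Rag1 and Dntt, 3 of the 5 CLP markers, were higher in CLPs at both ages, and of the 5 MPP markers 2, Kit and Cd34, were lower in CLPs at 1MO and 3, these and Ly6a, at 3MO. The other MPP markers, Flt3 and Cd48, did not pass at either age, with log2 fold changes of 0.31 and 0.06 at 1MO and 0.15 and 0.67 at 3MO. Flt3 is on both marker lists. Ly6d, the remaining CLP marker and the one the CLPs were sorted as lacking, measured 5.32 ± 2.62 CPM in CLPs and 0.95 ± 1.15 CPM in MPPs at 1MO (log2 fold change 2.48, edgeR adjusted p = 0.32) and 3.30 ± 2.26 CPM and 0.12 ± 0.15 CPM at 3MO (log2 fold change 4.61, edgeR adjusted p = 0.057), and did not pass at either age. The second library of 3MO CLPs and the first of 3MO MPPs stood apart from the rest, with the fewest genes detected (12818 and 12380) and few low counts: the 5th percentile of their counts above 0 was 14.6 and 14.3, against 2.01 to 6.05 in the other 10 libraries. The description of the series names paired-end reads, the methods name paired-end or single-end reads without assigning either to a library, and the part of the read type in these values was not tested. Markers of bone stroma and endothelium summed to 204 to 576 CPM in 1MO CLPs, against 0 to 7.99 CPM in 3MO CLPs, 11.0 to 78.3 CPM in 1MO MPPs and 5.39 to 14.1 CPM in 3MO MPPs. Between 1MO and 3MO CLPs, edgeR called 2 of the 4 tested genes of this list and 1 of the 5 CLP markers lower at 3MO. Over all genes tested, 10 were called in that comparison. B-lineage markers summed to 63.7 to 100 CPM in 1MO CLPs, 23.7 to 50.7 CPM in 3MO CLPs and at most 4.17 CPM in MPPs. Myeloid markers summed to 1009 to 1384 CPM in 1MO CLPs, 868 to 1155 CPM in 3MO CLPs, 679 to 826 CPM in 1MO MPPs and 588 to 918 CPM in 3MO MPPs. The part of these signals in the differences described below was not tested. In bulk libraries such as these, fewer cells of a type and less RNA per cell cannot be told apart.

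The stem cell factors and Tal1 were lower in CLPs than in MPPs at both ages, whereas Gata1, Gfi1b, Itga2b and Pf4 did not pass the test at either age. Of the 9 genes, 5, Hlf, Mecom, Gata2, Tal1 and Meis1, were called lower in CLPs at 1MO in edgeR's quasi-likelihood test, at a Benjamini-Hochberg adjusted p under 0.05 over all genes tested, and the same 5 were called lower at 3MO. Over all genes tested, 2.81% were called lower and 2.57% higher in CLPs at 1MO, and 3.34% lower and 2.73% higher at 3MO. None of the 9 was called higher in CLPs. With no regard to the test, the 3 CLP libraries all lay below the 3 MPP libraries for 7 of the 9 genes at 1MO and for 5 of 9 at 3MO, against 13.8% and 11.7% of all genes tested. The reverse, every CLP library above every MPP library, was seen for Gfi1b at 3MO and held for 10.1% of all genes. The median log2 fold change of all genes was -0.02 at 1MO and -0.03 at 3MO, so the differences given here are close to those relative to the typical gene.

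**Figure D1:**
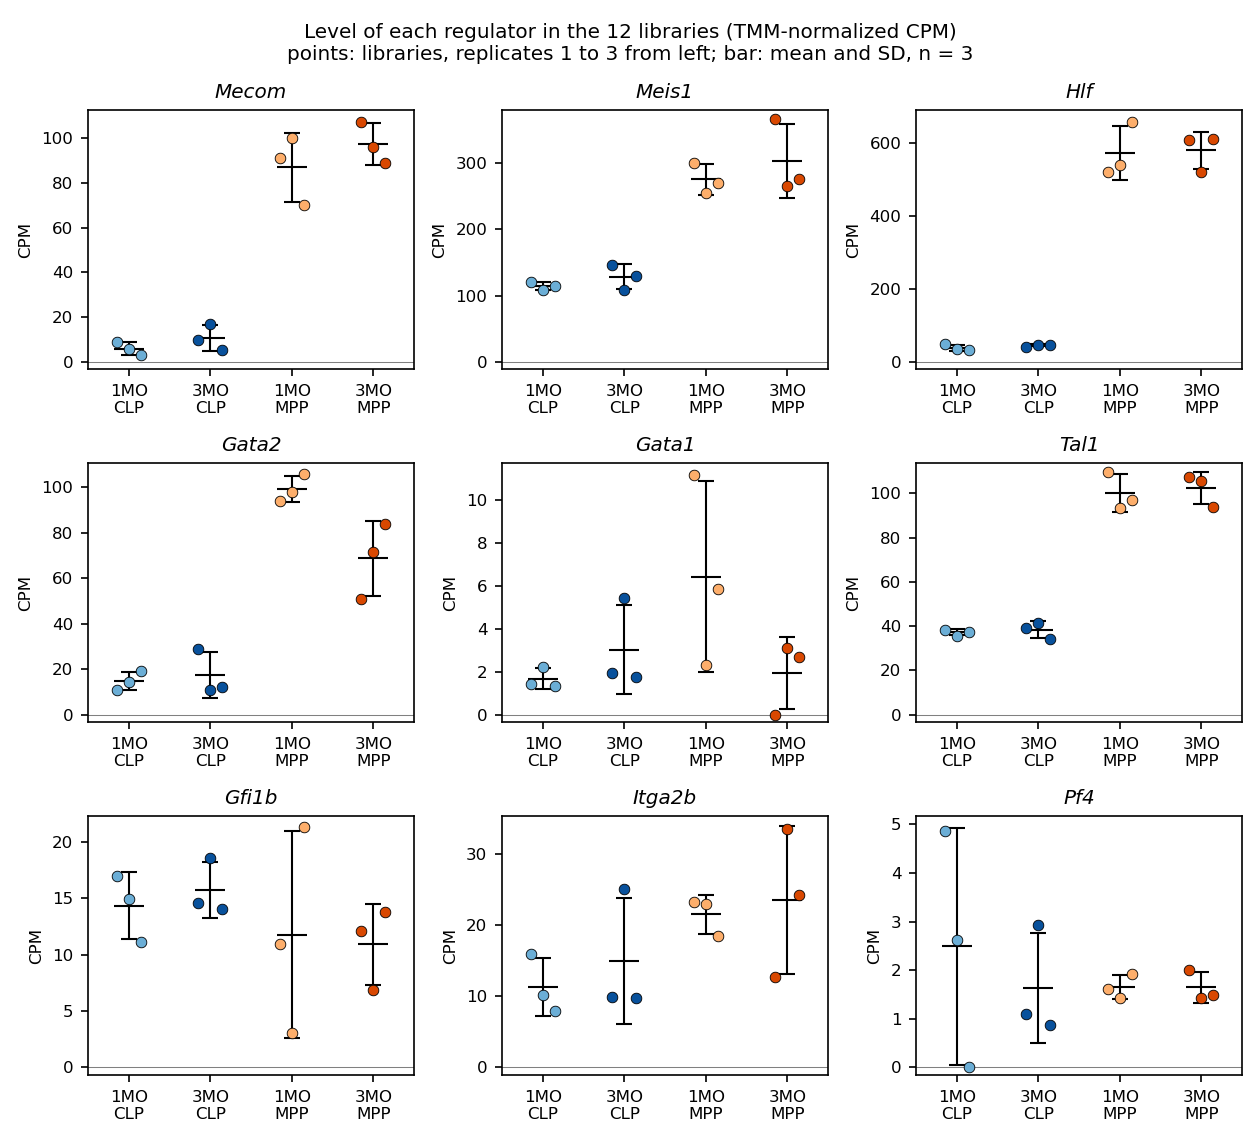
Level of each of the 9 genes in CPM on a linear axis, with 1 point per library, and the mean and SD of the 3 libraries of each group. The CLP and MPP groups are apart for Mecom, Meis1, Hlf, Gata2 and Tal1 at both ages, while those of Gata1 and Itga2b overlap at 3MO, of Gfi1b at 1MO and of Pf4 at both ages, and 1 library each of Gata1 and Pf4 lies at 0.

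Hlf, a bZIP transcription factor that marks blood stem cells, showed the clearest difference. The gene lies on chromosome 11 of GRCm38 from 90336536 to 90390895. Its level was 47.4, 33.7 and 33.1 CPM in the 3 libraries of 1MO CLPs and 41.5, 46.6 and 46.3 CPM in those of 3MO CLPs. In MPPs it was 519, 539 and 657 CPM at 1MO and 607, 520 and 609 CPM at 3MO. The lowest MPP library thus lay far above the highest CLP library at either age, and the ages overlapped within each cell type. The mean in CLPs was 6.65% of that in MPPs at 1MO and 7.74% at 3MO. The log2 fold change was -3.91 at 1MO (standard error, SE, 0.19, 15.1-fold lower, edgeR adjusted p = 1.5e-08) and -3.69 at 3MO (SE 0.19, 12.9-fold lower, edgeR adjusted p = 3.1e-08). Among the 13367 genes tested, Hlf ranked 1 by p at both ages. It was also the highest of the 9 genes per length of exon in MPPs, at 85.6 CPM per kb at 1MO and 86.6 CPM per kb at 3MO, above 97.9% of the genes tested at 1MO and 98.0% at 3MO.

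Mecom, which encodes the zinc finger protein EVI1 and its longer form MDS1-EVI1, differed by a similar ratio from a lower level. It lies on chromosome 3 from 29951296 to 30548008. CLP libraries held 8.64, 5.68 and 2.92 CPM at 1MO and 9.79, 16.7 and 5.14 CPM at 3MO, and MPP libraries held 91.2, 100.1 and 70.0 CPM at 1MO and 107, 96.0 and 88.9 CPM at 3MO. No CLP library reached the level of any MPP library. At 1MO the log2 fold change was -3.93 (SE 0.42, 15.3-fold lower, edgeR adjusted p = 2.9e-05) and -3.20 at 3MO (SE 0.40, 9.16-fold lower, edgeR adjusted p = 0.00017). The highest CLP level, 16.7 CPM, came from the second library of 3MO CLPs, which stood apart in its low counts. An antisense transcript, Mecomos, shares 81 exon bases with Mecom and was at 0 in all libraries.

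Gata2, the GATA factor of stem and early progenitor cells, lies on chromosome 6 from 88193891 to 88207032. Its level was 10.8, 14.5 and 19.0 CPM in 1MO CLPs and 29.1, 10.9 and 12.3 CPM in 3MO CLPs, where the first library was well above the others. In MPPs it was 94.2, 97.8 and 105.7 CPM at 1MO and 51.1, 71.6 and 83.8 CPM at 3MO. The cell types did not overlap at either age, and the MPP libraries of 3MO all lay below those of 1MO. The CLP mean was 14.9% of the MPP mean at 1MO and 25.3% at 3MO. On the log2 scale CLPs differed from MPPs by -2.74 at 1MO (SE 0.35, edgeR adjusted p = 0.00016) and -1.99 at 3MO (SE 0.34, edgeR adjusted p = 0.0020). Without the first 3MO CLP library, the CLP mean at 3MO was 16.8% of the MPP mean and the log2 fold change was -2.57.

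Meis1, a homeobox partner of HOX and PBX proteins, stayed well expressed in CLPs. It lies on chromosome 11 from 18879817 to 19018985. CLP libraries held 120, 109 and 114 CPM at 1MO and 146, 109 and 130 CPM at 3MO, and MPP libraries held 301, 255 and 271 CPM at 1MO and 367, 266 and 276 CPM at 3MO. The groups were tight and apart, with the CLP mean at 41.5% of the MPP mean at 1MO and 42.3% at 3MO. The log2 fold changes were -1.27 (SE 0.17, edgeR adjusted p = 0.00022) and -1.24 (SE 0.17, edgeR adjusted p = 0.00030). The antisense gene Gm16140 shares 896 exon bases with Meis1 and had at most 42.4 estimated counts in a library. The methods name a directional RNA library kit, but the sources used here do not give the strand setting of the quantification.

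Among the erythroid and megakaryocyte factors, Tal1 alone was called. TAL1, also called SCL, is a basic helix-loop-helix protein needed both for the formation of blood stem cells and for erythroid and megakaryocyte maturation, and its gene lies on chromosome 4 from 115056426 to 115071755. Its level was 38.4, 35.7 and 37.4 CPM in 1MO CLPs, 39.2, 41.6 and 34.0 CPM in 3MO CLPs, 109.9, 93.6 and 96.8 CPM in 1MO MPPs and 107.5, 105.5 and 94.0 CPM in 3MO MPPs. The spread within groups was small beside the step between cell types, and the CLP mean was 37.2% of the MPP mean at 1MO and 37.4% at 3MO. Its log2 fold change was -1.43 at 1MO (SE 0.17, edgeR adjusted p = 7.9e-05) and -1.42 at 3MO (SE 0.17, edgeR adjusted p = 0.00011).

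Gata1, the master factor of erythroid cells, lies on chromosome X from 7959260 to 7978071 and was low throughout. It measured 1.44, 2.22 and 1.33 CPM in 1MO CLPs, 1.92, 5.42 and 1.74 CPM in 3MO CLPs, 11.2, 2.30 and 5.84 CPM in 1MO MPPs and 0, 3.09 and 2.69 CPM in 3MO MPPs. The 0 is that of the first 3MO MPP library, where a count of 0 allows up to 0.317 CPM, a limit of 3 counts that covers counting error only and not the scarcity of low counts in this library. At 1MO the lowest MPP library, at 2.30 CPM, was just above the highest CLP library, at 2.22 CPM, and at 3MO the groups overlapped. The log2 fold change was -1.94 at 1MO (95% confidence interval -4.16 to 0.28, edgeR adjusted p = 0.42) and 0.64 at 3MO (interval -1.53 to 2.81, edgeR adjusted p = 0.82). The value at 3MO was -0.66 with both libraries that stood apart left out, an alternative chosen after the data were seen. The intervals are wide, and they do not show that Gata1 was alike in the cell types.

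Gfi1b, a zinc finger repressor of the erythroid and megakaryocyte lineages on chromosome 2 from 28609450 to 28621982, had its highest group mean in CLPs. It measured 17.0, 14.9 and 11.1 CPM in 1MO CLPs and 14.5, 18.5 and 14.1 CPM in 3MO CLPs. In MPPs it measured 10.9, 3.07 and 21.3 CPM at 1MO and 12.1, 6.91 and 13.7 CPM at 3MO. The 1MO MPP libraries spanned the whole range of the other groups, and at 3MO the lowest CLP library was above the highest MPP library by less than 1 SD of either group. Its log2 fold change was 0.27 at 1MO (95% confidence interval -0.79 to 1.34, edgeR adjusted p = 0.91) and 0.53 at 3MO (interval -0.54 to 1.60, edgeR adjusted p = 0.66). A decrease in CLPs of the size seen for Tal1 lies outside both intervals.

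Itga2b lies on chromosome 11 from 102453297 to 102470122. It measured 15.9, 10.2 and 7.93 CPM in 1MO CLPs and 9.89, 25.2 and 9.81 CPM in 3MO CLPs, and 23.2, 23.0 and 18.4 CPM in 1MO MPPs and 12.8, 33.6 and 24.3 CPM in 3MO MPPs. The groups did not overlap at 1MO. At 3MO they overlapped through the second CLP library, which was the highest of its group, and the first MPP library was the lowest of its group; both are libraries that stood apart. Fitted log2 fold changes were -0.93 at 1MO (SE 0.43, edgeR adjusted p = 0.30) and -0.65 at 3MO (SE 0.42, edgeR adjusted p = 0.46). Without the second 3MO CLP library the value at 3MO was -1.26 (edgeR adjusted p = 0.12) and without the first 3MO MPP library -0.95 (edgeR adjusted p = 0.24), and neither passed. With both left out, a choice made after the data were seen that leaves 2 libraries in each 3MO group, the value at 3MO was -1.56 (edgeR adjusted p = 0.029). The number of genes called lower at 3MO was then 6 of the 9, against 2.31% of all genes in that fit, and the value at 1MO was -0.93 (edgeR adjusted p = 0.079). Between CLP and MPP libraries of the same age and number, Itga2b was lower in the CLP library in 6 of 6 pairs, as were the 5 called genes, against 4 of 6 for Gata1, 3 of 6 for Pf4 and 1 of 6 for Gfi1b, and 10.3% of all genes were lower in 6 of 6. For the 5 called genes, and for Itga2b at 1MO, this follows from groups that do not overlap. Fitted with libraries of the same age and number as pairs, Itga2b had -0.98 at 1MO (SE 0.32, edgeR adjusted p = 0.10) and -0.70 at 3MO (SE 0.32, edgeR adjusted p = 0.24), neither of which passed.

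Pf4 lies on chromosome 5 from 90772435 to 90773383 and had 10.9 to 53.7 estimated counts in 11 of the 12 libraries and 0 in the other. It measured 4.86, 2.62 and 0 CPM in 1MO CLPs, 1.11, 2.93 and 0.87 CPM in 3MO CLPs, 1.61, 1.43 and 1.93 CPM in 1MO MPPs and 2.01, 1.44 and 1.49 CPM in 3MO MPPs. The library at 0 allows up to 0.190 CPM. Between these levels no difference could be seen at this depth, with log2 fold changes of 0.58 at 1MO (95% confidence interval -1.99 to 3.15, edgeR adjusted p = 0.93) and 0.00 at 3MO (interval -2.53 to 2.53, edgeR adjusted p = 1).

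**Figure D2:**
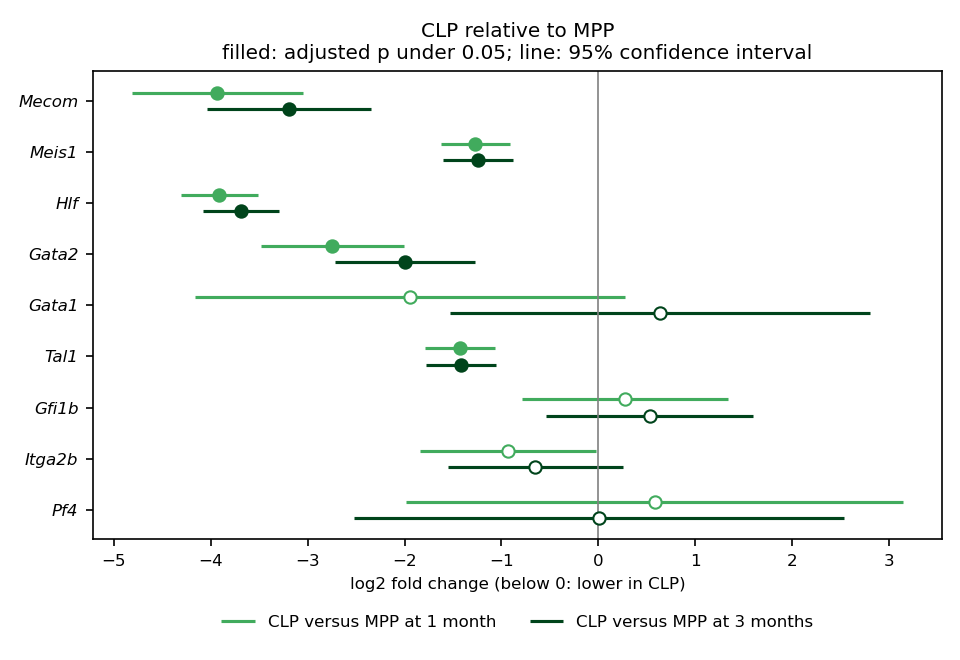
Log2 fold change of CLPs relative to MPPs for the 9 genes at 1MO and at 3MO, with 95% confidence intervals from the edgeR fit, filled where the adjusted p was under 0.05. Values below 0 are lower in CLPs. Hlf and Mecom lie between -3 and -4, Gata2 at -2.74 and -1.99, Tal1 and Meis1 between -1 and -2, and the intervals of Gata1, Gfi1b and Pf4 include 0 at both ages.

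The order of the genes by level differed between the cell types. Per kb of exon, the group means in 1MO MPPs ran from Hlf (85.6 CPM per kb) through Meis1 (26.2), Tal1 (22.9), Gata2 (18.4), Mecom (7.01), Gfi1b (6.44), Itga2b (3.95) and Gata1 (2.64) to Pf4 (2.29). In 1MO CLPs the order was Meis1 (10.9 CPM per kb), Tal1 (8.49), Gfi1b (7.84), Hlf (5.70), Pf4 (3.46), Gata2 (2.73), Itga2b (2.08), Gata1 (0.68) and Mecom (0.46). Mecom was above 51.0% of the genes tested in 1MO MPPs and above 11.4% in 1MO CLPs, so that it went from mid-range to among the lowest. Among neighbours in the order of 1MO MPPs, Hlf and Meis1, Tal1 and Gata2, and Gata2 and Mecom had libraries that did not overlap, and the other neighbours overlapped, Gfi1b with both of its own since it ranged from 3.07 to 21.3 CPM. In 1MO CLPs the libraries of Meis1 and Tal1 and those of Itga2b and Gata1 did not overlap, and all other neighbours did.

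Age was the contrast the study was made for, and none of the 9 genes passed the test for it. Between 3MO and 1MO, 0 of the 9 were called in CLPs and 0 in MPPs by edgeR, against 0.0748% and 0.0224% of all genes tested. DESeq2's Wald test also called 0 of the 9 in each, and of all genes it called 57 in CLPs and 32 in MPPs. At an unadjusted p under 0.05 there was 1 of the 9 in CLPs, Mecom, and 0 in MPPs, against 5.9% and 3.48% of all genes. Mecom averaged 5.75 ± 2.86 CPM in 1MO CLPs and 10.5 ± 5.82 CPM in 3MO CLPs (SD, n = 3), with overlapping libraries and a log2 fold change of 0.90 (SE 0.39, edgeR adjusted p = 0.82). Without the second library of 3MO CLPs that value was 0.38.

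Gata2 in MPPs was the only gene of the 9 whose 1MO and 3MO libraries did not overlap, in a comparison where 8.57% of all genes did not overlap; in CLPs none of the 9 was of this kind, against 10.6% of all genes. The mean went from 99.2 ± 5.88 CPM to 68.8 ± 16.5 CPM (SD, n = 3), with a log2 fold change of -0.53 (SE 0.32, edgeR adjusted p = 1). The lowest of these libraries, at 51.1 CPM, was the first 3MO MPP library, and without it the value was -0.35. Gata1 in MPPs had a log2 fold change of -1.72 with an interval from -3.93 to 0.48 (edgeR adjusted p = 1).

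For Hlf, Tal1 and Meis1 the age intervals were narrow. The log2 fold change of Hlf was 0.24 in CLPs (95% confidence interval -0.12 to 0.60) and 0.02 in MPPs (interval -0.34 to 0.37). That of Tal1 was 0.04 in CLPs (interval -0.31 to 0.40) and 0.03 in MPPs (interval -0.32 to 0.38). That of Meis1 was 0.16 in CLPs (interval -0.19 to 0.52) and 0.14 in MPPs (interval -0.22 to 0.49). Differences with age as large as those between the cell types lie outside these intervals.

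**Figure D3:**
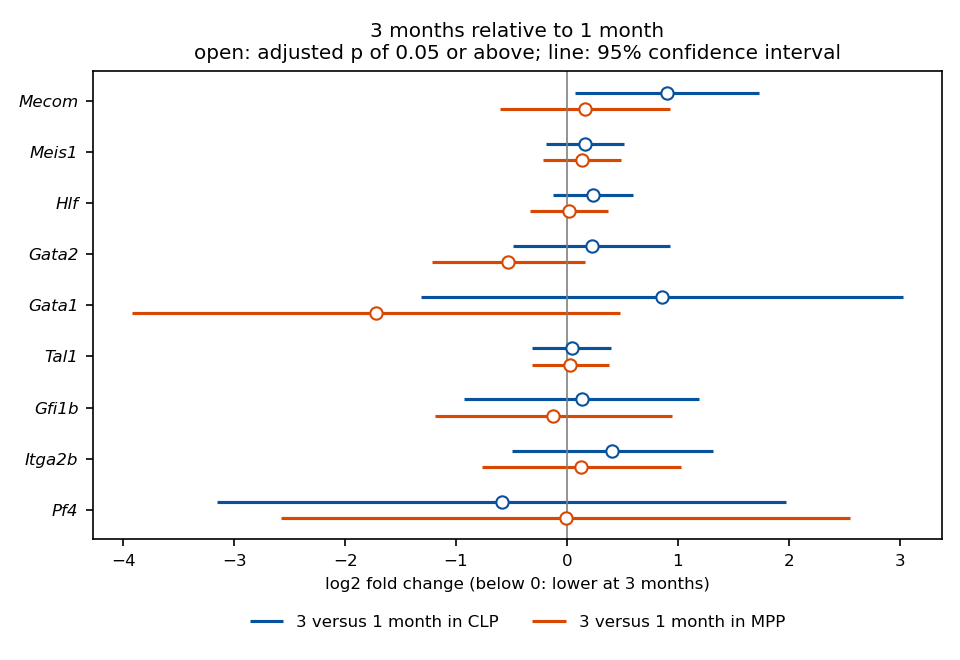
Log2 fold change of 3MO relative to 1MO for the 9 genes in CLPs and in MPPs, with 95% confidence intervals from the edgeR fit. Values below 0 are lower at 3MO. All points are open, since no adjusted p was under 0.05, and the intervals of Gata1 and Pf4 are several times as wide as those of Hlf, Tal1 and Meis1.

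Whether the step between cell types differed between the ages was tested as an interaction. It called 0 of the 9 genes and 0% of all genes in edgeR, where 0 of the 9 and 429 (3.21%) of all genes had an unadjusted p under 0.05, while DESeq2's Wald test called 6 of all genes and 0 of the 9. The largest interaction value was 2.58 for Gata1 (SE 1.45, edgeR adjusted p = 1.00), followed by 0.75 for Gata2 (SE 0.47, edgeR adjusted p = 1.00) and 0.74 for Mecom (SE 0.53, edgeR adjusted p = 1.00). Leaving out single libraries, these ranged from 1.85 to 3.08 for Gata1, from 0.16 (without the first 3MO CLP library) to 1.00 for Gata2 and from 0.22 (without the second 3MO CLP library) to 1.13 (without the first 1MO CLP library) for Mecom. With both libraries that stood apart left out, the value was 1.28 for Gata1, 0.83 for Gata2 and 0.30 for Mecom.

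Other genes of the same programs were counted in lists written from general knowledge, but with earlier results of these data known. The lists are thus not independent of these data. Their counts stand beside 2.81% of all genes lower and 2.57% higher in CLPs at 1MO and 3.34% lower and 2.73% higher at 3MO. Of 21 further stem cell regulators, all tested, 10 were lower and 0 higher in CLPs at 1MO and 7 were lower and 0 higher at 3MO, with 6 lower at both ages. The list had its median at -1.52 on the log2 scale at 1MO and at -0.73 at 3MO. Fgd5, a stem cell marker, measured 1.43 ± 0.24 CPM in 1MO CLPs and 28.3 ± 7.15 CPM in 1MO MPPs (log2 fold change -4.29, edgeR adjusted p = 1.4e-05). Procr, the endothelial protein C receptor gene, measured 0.61 ± 0.28 CPM against 16.2 ± 3.36 CPM (log2 fold change -4.77, edgeR adjusted p = 0.00077), and Nkx2-3, a homeobox factor, 2.52 ± 0.86 CPM against 25.1 ± 9.30 CPM (log2 fold change -3.30, edgeR adjusted p = 0.00054). Mycn, which encodes N-MYC, was lower in CLPs at 1MO (27.2 ± 4.09 CPM against 90.7 ± 18.0 CPM, log2 fold change -1.74, edgeR adjusted p = 0.00011) but measured 39.9 ± 1.26 CPM in CLPs and 38.3 ± 4.75 CPM in MPPs at 3MO (log2 fold change 0.06, edgeR adjusted p = 0.92). The interaction for Mycn was 1.80 (SE 0.29, edgeR adjusted p = 0.24), which did not pass.

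The partners of TAL1, the GATA factors and GFI1B on chromatin formed another list. Of its 12 genes, all tested, 3 were lower and 0 higher in CLPs at 1MO and 2 were lower and 1 higher at 3MO, and the list median was 0.07 on the log2 scale at 1MO and 0.08 at 3MO. Lmo2, the bridging subunit of the TAL1 complex, measured 139 ± 10.4 CPM in 1MO CLPs and 436 ± 84.8 CPM in 1MO MPPs (log2 fold change -1.65, edgeR adjusted p = 1.4e-05) and was also called at 3MO. Zfpm1, which encodes the GATA cofactor FOG1, had a log2 fold change of -1.42 at 1MO (edgeR adjusted p = 0.0023) and -1.20 at 3MO (edgeR adjusted p = 0.0081). Gfi1, the paralog of Gfi1b, had log2 fold changes of -1.09 (edgeR adjusted p = 0.027) and -0.40 (edgeR adjusted p = 0.49). Lyl1, the paralog of Tal1, did not pass at 1MO, with 146 ± 36.8 CPM in CLPs and 99.2 ± 16.2 CPM in MPPs (log2 fold change 0.56, edgeR adjusted p = 0.19). The gene higher at 3MO was Cbfa2t3, a corepressor, with a log2 fold change of 0.61 (edgeR adjusted p = 0.033), named after its value was seen.

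Genes of the mature lineages were listed for each lineage. Of 20 erythroid genes, 19 were tested, of which 1 was lower at 1MO, 2 were lower at 3MO and 0 were higher at either age, with medians of 0.31 and -0.03. Summed over the list, the third library was the highest of each group. It held 271 CPM against 95.3 and 82.5 CPM in 1MO CLPs, and 188 against 97.4 and 90.6 CPM in 3MO CLPs. In MPPs it held 568 against 308 and 243 CPM at 1MO, and 438 against 252 and 277 CPM at 3MO. The part of this signal in the calls was not tested. The gene called at both ages was Car2, a carbonic anhydrase, at 35.1 ± 8.61 CPM in 1MO CLPs and 259 ± 79.1 CPM in 1MO MPPs (log2 fold change -2.88, edgeR adjusted p = 3.1e-06). Hemgn, the hemogen gene, was called at 3MO (log2 fold change -1.88, edgeR adjusted p = 0.025) and had -0.99 at 1MO (edgeR adjusted p = 0.30). Sptb, the beta spectrin gene, and Epor, the erythropoietin receptor gene, had log2 fold changes of 1.39 and 1.76 at 1MO, both with adjusted p above the threshold (0.63 and 0.72 from edgeR).

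Of 16 megakaryocyte and platelet genes, 10 were tested, of which 2 were lower and 0 higher at each age, the same 2 genes, with medians of -0.94 and -0.35. These were F2rl3, a thrombin receptor (5.58 ± 1.38 CPM in 1MO CLPs and 38.6 ± 10.1 CPM in 1MO MPPs, log2 fold change -2.80, edgeR adjusted p = 4.1e-05), and Nfe2, a bZIP factor of platelet formation (36.0 ± 7.35 CPM and 137 ± 28.8 CPM, log2 fold change -1.93, edgeR adjusted p = 0.00022). Itgb3, the partner chain of Itga2b in the fibrinogen receptor, measured 22.1 ± 3.35 CPM in 1MO CLPs and 13.6 ± 2.77 CPM in 1MO MPPs (log2 fold change 0.70, edgeR adjusted p = 0.35), so the values for the chains lay on opposite sides of 0, each without passing. Gp9, the platelet glycoprotein IX gene, measured 0.59 ± 0.55 CPM in 1MO CLPs and 3.38 ± 1.38 CPM in 1MO MPPs (log2 fold change -2.48, edgeR adjusted p = 0.40). For 11 of the 16 genes no group mean reached 5 CPM, and Gp6, the platelet collagen receptor gene, was at 0 in all groups and is named after its value was seen. Of 9 mast cell and basophil genes, lineages in which GATA2 also acts, 6 were tested and 0 called at either age by edgeR, with medians of -0.97 and -0.72. The 4 of these with the smallest p at 1MO were Mcpt8 (log2 fold change -1.46, edgeR adjusted p = 0.061), Prss34 (-0.95), Ms4a2 (-0.99) and Cpa3 (-0.51). No gene of the 5 lists was called for age in either cell type or for the interaction by edgeR.

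**Figure D4:**
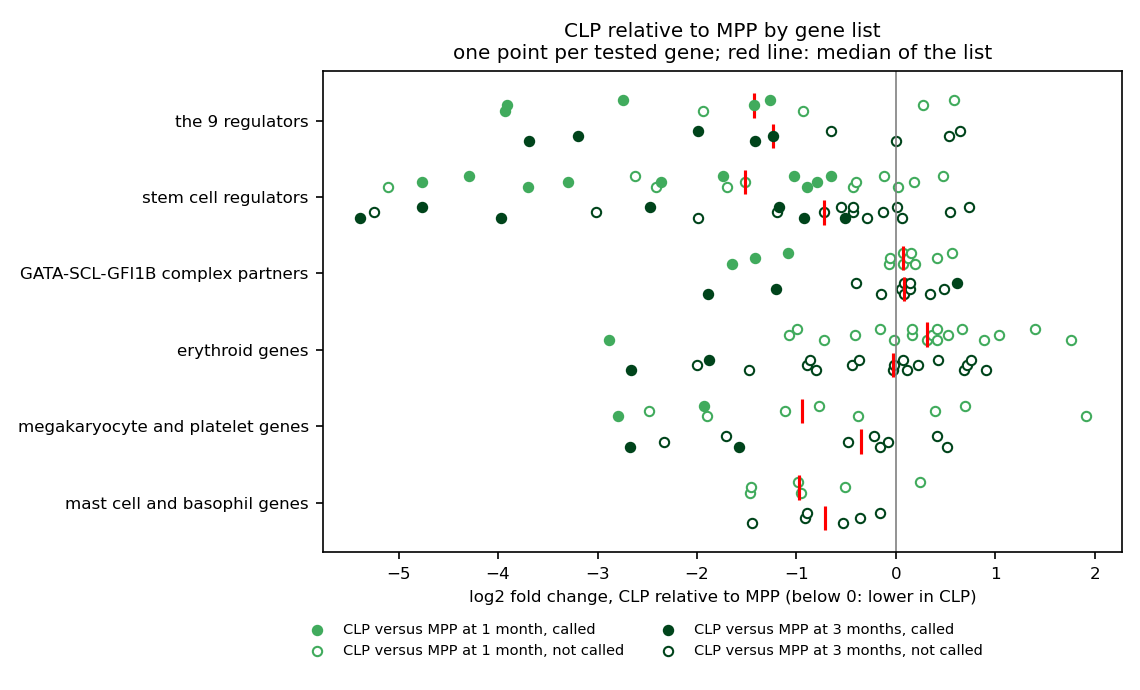
Log2 fold change of CLPs relative to MPPs for every tested gene of the 9 regulators and of the 5 lists, with 1MO above and 3MO below in each row, filled where called by edgeR, and the median of each list as a red line. Values below 0 are lower in CLPs. The called genes of the stem cell list lie at or below -0.52, and the partner and erythroid lists centre near 0, apart from single genes such as Lmo2 and Car2.

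Genes with a like pattern were found by the Pearson correlation of log2 CPM over the 12 libraries, which mostly follows the step between the 2 cell types and is given as a description. The points share libraries, so the value within the 6 libraries of each cell type is given for some. The 3 nearest genes to Hlf were Adgrl4 (r = 0.987), Tal1 (0.987) and Cers4 (0.986), and those to Tal1 were Angpt1 (0.988), Hlf (0.987) and F2rl3 (0.985). Within cell types the pair of Hlf and Tal1 had r = 0.26 in CLPs and -0.41 in MPPs. Mecom was nearest to Csf3r (0.977), Samd12 (0.969) and Tal1 (0.969), and with Csf3r it had r = 0.83 in CLPs and 0.84 in MPPs. Meis1 was nearest to F2rl3 (0.975), Rai14 (0.975) and Firre (0.972), and Gata2 to Inha (0.979), Samd9l (0.967) and Micall2 (0.967). Among the 5 called genes, the 10 pairs had r between 0.873 and 0.987.

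The genes that were not called had looser neighbours. Itga2b was nearest to Arhgef17 (0.934), Vasn (0.911) and Pm20d2 (0.901), and Gata1 to Tmco1 (0.915), Stard8 (0.908) and Fbxo44 (0.905). Gfi1b was nearest to Rnf126 (0.882), Dusp10 (0.857) and Taf9 (0.853), and Pf4 to Tpm3-rs7 (0.883), Zgpat (0.853) and Dennd6b (0.852). Within cell types, Itga2b and Vasn had r = 0.97 in CLPs and 0.96 in MPPs, while Pf4 and Tpm3-rs7 had 0.94 in CLPs and -0.32 in MPPs.

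The promoters of the 9 genes were read to show which carry a GATA motif, since both GATA factors and TAL1 are among them. RefSeq sequences on GRCm38.p6, from 250 bases before to 50 bases after the start of transcription, were held for all 9 genes and gave 12 promoters. The GATA motif was searched on both strands as the letters GATAA or GATAG preceded by A or T, and it stood in 5 of the 12 promoters, those of 4 genes, against 29.8% of all 32851 promoters. An E-box, CAGNTG, stood in 6 of the 12 against 51.4%, and an ETS core, CNGGAA, in 11 of the 12 against 61.7%. No 2 of the 28 matches overlapped. Both promoters of Mecom, at chr3:30509710-30510009 and chr3:30013155-30013454 on the minus strand, and the first of Tal1, at chr4:115056176-115056475 on the plus strand, held a match, as did those of Gfi1b and Pf4. Hlf, at chr11:90390868-90391167 on the minus strand, held none, and neither did Meis1, Gata2, Gata1 or Itga2b. The promoters of the called genes Mecom, Tal1 and Hlf are shown whole, 5′ to 3′, with the GATA match in capitals.
Mecom, first promoter: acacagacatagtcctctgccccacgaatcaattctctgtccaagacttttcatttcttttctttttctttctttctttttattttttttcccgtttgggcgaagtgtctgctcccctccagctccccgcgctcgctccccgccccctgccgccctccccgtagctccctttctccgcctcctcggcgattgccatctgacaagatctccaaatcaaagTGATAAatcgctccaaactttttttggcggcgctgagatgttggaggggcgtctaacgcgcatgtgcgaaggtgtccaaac
Mecom, second promoter: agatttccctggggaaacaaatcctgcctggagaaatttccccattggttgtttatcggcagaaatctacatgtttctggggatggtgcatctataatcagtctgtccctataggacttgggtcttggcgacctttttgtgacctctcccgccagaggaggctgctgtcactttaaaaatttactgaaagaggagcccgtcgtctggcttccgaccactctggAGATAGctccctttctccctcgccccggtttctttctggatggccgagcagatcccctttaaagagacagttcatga
Tal1, first promoter: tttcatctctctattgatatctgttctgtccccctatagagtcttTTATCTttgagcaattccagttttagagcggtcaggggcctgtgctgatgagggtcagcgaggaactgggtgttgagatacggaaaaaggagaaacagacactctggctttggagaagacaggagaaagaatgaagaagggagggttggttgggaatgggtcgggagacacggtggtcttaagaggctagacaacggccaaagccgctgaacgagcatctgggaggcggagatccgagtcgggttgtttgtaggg
Hlf: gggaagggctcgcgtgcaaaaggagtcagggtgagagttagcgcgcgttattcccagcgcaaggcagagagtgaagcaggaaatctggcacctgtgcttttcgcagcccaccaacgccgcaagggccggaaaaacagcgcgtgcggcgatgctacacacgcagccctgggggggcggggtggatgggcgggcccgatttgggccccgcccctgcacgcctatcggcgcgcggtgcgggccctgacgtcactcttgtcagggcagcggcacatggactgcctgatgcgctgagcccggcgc

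The match began 31 bases before the start in the first promoter of Mecom and 27 bases before it in the second. In Tal1 it began 205 bases before the start and read on the opposite strand. The motif was thus found in genes that were lower in CLPs and in genes that were not called, as the stretches around the match in Gfi1b (chr2:28622070-28622129, minus strand) and Pf4 (chr5:90772444-90772484, plus strand) show.
Gfi1b: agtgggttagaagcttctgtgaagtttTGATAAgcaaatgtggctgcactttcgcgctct
Pf4: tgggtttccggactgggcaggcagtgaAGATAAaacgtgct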

How the data were processed

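RNA was sequenced from 12 libraries, 3 each of 1MO and 3MO Ly6d- CLPs and Flk2+ MPPs, and depth ranged from 8889083 to 20677785 estimated counts. The authors prepared poly(A) RNA libraries, and their notes name FastQC, UMI-tools, Trim Galore, STAR, Salmon and DESeq2 with the build mm10. The deposited values are length-scaled estimated counts for each gene, without any scaling for depth, and the 12 columns carry the names of the samples. The annotation and the strand setting used for quantification are not given in the sources used here.

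Counts were rounded and tested in R 4.3.3 with edgeR 4.0.16 (filterByExpr, TMM, quasi-likelihood test, one fit of the 4 groups, Benjamini-Hochberg adjusted p under 0.05 over 13367 genes). Standard errors were taken from the fold change and its F statistic. Correlations used log2 CPM with a prior count of 2. The shares of genes that a level per kb lay above used CPM taken back from that scale. Length was that of all exons of a gene joined. Scripts were tested on simulated data. Coordinates came from GENCODE M21 (GRCm38), which held 32158 of 32285 identifiers, and promoters from RefSeq (GRCm38.p6). Every pair of replicates differed by more than sampling noise. Python 3.11.15, pandas 2.3.3, numpy 2.4.6 and matplotlib 3.10.9 were used.

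Alternatives were DESeq2 1.42.0 (size factors and Wald test), no filter, a minimum of 10 counts in each library, a replicate block, CLPs and MPPs as pairs, the 6 libraries of a contrast only, and each library left out. Leaving out 2 libraries together was added after the data were seen. The 9 genes and the lists were chosen with earlier results of these data known. Named besides the 9 were the 4 genes of each list with the smallest p for CLPs against MPPs at 1MO, the 3 genes most correlated with each of the 9, markers of the sorted cells, the antisense genes Mecomos and Gm16140, and Cbfa2t3 and Gp6, which were named after their values were seen. One gene of the planned lists is not reported here and was left out of their counts. A comparison of the GATA1 and GATA2 proteins was planned and not run.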

Additional observations from a re-analysis of the deposited data

How the results depend on the processing

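Hlf, Mecom, Gata2, Tal1 and Meis1 were called lower in CLPs at both ages under every alternative run. None of the 9 genes was called for age or for the interaction under any alternative run for them, which leaves out CLPs and MPPs as pairs for both and, for the interaction, the fits of 6 libraries. The one single-gene call that was gained, that of Itga2b at 3MO, is given above. The number of all genes called moved more. With no filter it was 46 for age in CLPs, 26 for age in MPPs and 6 for the interaction, and with at least 10 counts in every library it was 4 and 1 for age, where Gata1 and Pf4 were not tested. DESeq2's Wald test called 1175 and 1371 genes between the cell types at 1MO and 3MO, 57 and 32 for age in CLPs and MPPs, and 6 for the interaction. Fits of only the 6 libraries of a contrast called 435 genes between the cell types at 3MO and 4 for age in CLPs, and leaving out both libraries that stood apart gave 5 for age in MPPs. The cause of these shifts was not tested. Leaving out single libraries, the counts were 460 to 887 between the cell types at 1MO, 6 to 10 and 3 to 5 for age in CLPs and MPPs, and 0 to 1 for the interaction. Counts that moved by over 1.5 times were 460 and 477 at 1MO without 1MO MPP replicate 1 or 3, 463 and 473 without 1MO CLP replicate 2 or 3, 6 for age in CLPs without 1MO CLP replicate 1 or 3MO CLP replicate 2, 5 for age in MPPs without 3MO MPP replicate 2, and 1 for the interaction without 3MO CLP replicate 3.

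Whether the replicate numbers pair the libraries is not given in the sources used here. Deviations from the group means correlated above 0.1 in 5 of 18 same-numbered pairs (r from -0.03 to 0.21), and 8 of 12 libraries correlated best with their own number, a hint of pairing from the data. The sample numbers in the column names also run by replicate number across the groups, without stating what equally numbered libraries share. As no source states a pairing, the libraries were treated as unpaired, and fits with pairing are given as alternatives. With a replicate block, 915 and 1007 genes were called between the cell types at 1MO and 3MO and the log2 fold change of Pf4 at 3MO was -0.12. With CLPs and MPPs as pairs, Pf4 had -0.25 at 1MO and -0.20 at 3MO.

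Reversals of sign were seen only for values that passed no test. The interaction of Tal1 was -0.014 with no filter, and age in MPPs for Pf4 was 0.0034 with DESeq2's size factors and 0.0035 in its Wald test. With both libraries that stood apart left out, Gata1 and Pf4 had -0.66 and -0.56 between the cell types at 3MO. In that setting, age in CLPs was -0.023 for Tal1, -0.0032 for Gfi1b and -0.20 for Itga2b, age in MPPs was -0.025 for Meis1, -0.019 for Hlf and -0.0058 for Tal1, and the interaction was -0.017 for Tal1 and -0.62 for Itga2b.

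Leaving out single libraries, the log2 fold change between the cell types ranged from -0.17 to 1.02 for Gfi1b and -0.33 to 1.17 for Pf4 at 1MO, and from -0.093 to 1.14 for Gata1 and -0.73 to 0.31 for Pf4 at 3MO. For age in CLPs it ranged from -0.36 to 0.47 for Gata2, -0.023 to 0.12 for Tal1, -0.022 to 0.27 for Gfi1b, -0.20 to 0.73 for Itga2b and -1.32 to 0.32 for Pf4. For age in MPPs it ranged from -0.026 to 0.22 for Meis1, -0.050 to 0.13 for Hlf, -0.016 to 0.10 for Tal1, -0.57 to 0.63 for Gfi1b, -0.21 to 0.43 for Itga2b and -0.18 to 0.11 for Pf4. For the interaction it ranged from -0.085 to 0.19 for Meis1, -0.060 to 0.089 for Tal1, -0.50 to 0.70 for Gfi1b, -0.33 to 0.62 for Itga2b and -1.31 to 0.33 for Pf4.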
